A study of Mus musculus with 24 samples.

Results

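The 10 genes described here encode enzymes that turn cholesterol into conjugated bile acids in mouse liver: Cyp7a1, Cyp8b1, Hsd3b7, Akr1d1, Cyp27a1, Cyp7b1, Cyp39a1, Amacr, Slc27a5 and Baat. They were chosen by symbol and are 10 of the 23411 rows of a table of raw read counts, and all 10 passed the filter on low counts in each fit. Poly(A) RNA was sequenced from the livers of 24 male mice, each library from 1 mouse, with 3 mice in each of 8 groups. WT mice express the P1 isoforms of HNF4α in adult liver, and α7HMZ mice carry an exon swap in Hnf4a, present throughout the body, so that their HNF4α is the P2 form alone. Both genotypes were on a mixed 129/Sv plus C57BL/6 background and aged 16 to 20 weeks. Fed groups of each genotype had chow ad libitum until they were killed at 10:30 or 13:30, in the light phase, or at 20:30, in the dark phase. A fasted group of each genotype, also killed at 10:30, had gone 12 h without food.

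Bile acid synthesis runs along a classic and an alternative route. The classic route opens with 7α-hydroxylation of cholesterol by CYP7A1, and the alternative route opens with oxidation of the sterol side chain, largely by CYP27A1, followed by 7α-hydroxylation of oxysterols by CYP7B1. CYP8B1 adds the 12α-hydroxyl group that makes cholic acid, so its activity bears on the share of 12α-hydroxylated bile acids, and in liver both Cyp7a1 and Cyp8b1 are held down by bile acids through FXR, SHP and FGF15 signalling.

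Library totals ran from 8545959 to 28445590 counts. Levels are given as CPM, the count scaled to the size of the library. In 1 library, replicate 1 of fed α7HMZ mice at 10:30, the ribosomal transcript Rn45s took 50.8% of counts, and Krt19, a bile duct keratin, exceeded 10 CPM in replicate 2 of WT mice (18.5 CPM) and replicates 1 and 3 of α7HMZ mice (14.3 and 12.6 CPM) at 20:30. These 4 libraries stood apart, and results that change without them are given with both values. All 8 hepatocyte markers were detected in every group, with a summed level between 81433 and 159695 CPM, lower in α7HMZ than in WT libraries without overlap after the fast (81433 to 96095 against 135938 to 155664 CPM) and in fed mice at 20:30 (102983 to 127254 against 132239 to 159695 CPM). In fed mice the α7HMZ median was also lower at 10:30 (109025 against 137507 CPM) and 13:30 (85154 against 101621 CPM), with overlapping ranges. The summed 6 bile duct markers were higher in α7HMZ than in WT livers without overlap at each fed time, at 58.8 to 70.8 against 47.7 to 55.7 CPM at 10:30, 49.2 to 65.0 against 36.3 to 40.6 CPM at 13:30 and 70.8 to 90.3 against 41.5 to 70.2 CPM at 20:30, and overlapped after the fast. The 6 pancreatic markers together did not exceed 10.2 CPM in any library. Their sum was highest in the libraries with Krt19 above 10 CPM. At 20:30 it was 10.2 CPM in WT replicate 2 and 1.99 and 3.33 CPM in α7HMZ replicates 1 and 3. In every other library it was at most 0.95 CPM. The origin of this signal was not tested. Counts of Hnf4a cannot tell the 2 isoform classes apart, since they were summed over the gene, and ran from 580 to 1353 CPM over the 24 libraries. The fed 10:30 groups and the fasted WT group were run on 1 flow cell and all other groups on another. Flow cell therefore cannot be told apart from fasting in α7HMZ mice, or from genotype in fasted mice. In whole liver, fewer hepatocytes and less RNA of a gene per hepatocyte cannot be told apart. This holds for the summed hepatocyte markers too.

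The 250 bases before the RefSeq start site (GRCm38.p6) are shown for 3 members that moved in different ways between genotypes: Cyp8b1, the member with the largest difference, Hsd3b7, which was lower by less, and Akr1d1, which was not lower in fed α7HMZ livers. Each is printed on the strand of the gene and ends 1 base before the start site, and capitals mark the motif matches.
Cyp8b1 (chr9:121916306-121916555, minus strand): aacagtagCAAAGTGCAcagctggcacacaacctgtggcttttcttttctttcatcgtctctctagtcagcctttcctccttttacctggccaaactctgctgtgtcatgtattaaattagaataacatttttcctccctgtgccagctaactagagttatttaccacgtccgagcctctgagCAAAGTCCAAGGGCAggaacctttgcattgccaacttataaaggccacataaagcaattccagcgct
Hsd3b7 (chr7:127800359-127800608, plus strand): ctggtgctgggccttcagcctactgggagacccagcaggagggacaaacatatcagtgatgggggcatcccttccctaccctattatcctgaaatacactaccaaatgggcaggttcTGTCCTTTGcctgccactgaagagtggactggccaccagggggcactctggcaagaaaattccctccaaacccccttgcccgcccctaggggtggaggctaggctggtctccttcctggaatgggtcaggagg
Akr1d1 (chr6:37529923-37530172, plus strand): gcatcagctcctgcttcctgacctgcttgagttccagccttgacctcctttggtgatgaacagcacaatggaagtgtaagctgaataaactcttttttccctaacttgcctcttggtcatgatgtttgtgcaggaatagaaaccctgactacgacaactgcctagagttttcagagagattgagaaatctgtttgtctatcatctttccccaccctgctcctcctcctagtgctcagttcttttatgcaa
Each motif was searched on both strands. The HNF4 core CAAAGTCCA occurred in the Cyp8b1 window at position -67, counted from the start site, and in 0.475% of 32851 promoters of 300 bases (250 before and 50 after the start site). A relaxed form, CAAAGNNCA, occurred in Cyp8b1 at -242 and -67 and in Hsd3b7 at -133 on the opposite strand, and in 6.36% of promoters. CAAGGNCA, the LRH-1 motif, occurred in Cyp8b1 at -60, where its first 2 bases are the last 2 of the HNF4 match, and in 6.71% of promoters. The inverted repeat bound by FXR (0.0883% of promoters), the E-box CACGTG (7.15%) and the D-box TTANGTAA (2.32%) were not in these windows, and no motif was in the Akr1d1 window. The reference tables used here held windows for 4 of the 10 members, and the other, of Cyp27a1, held no match either. Cyp27a1 was nonetheless lower in fed α7HMZ livers by more than Hsd3b7 (averaged log2 difference -0.76 against -0.66). Whether matches go with the genotype difference was not tested. A match says only that the letters are there, and binding of HNF4α was not measured in these files.

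In fed mice, α7HMZ livers had lower levels of 7 of the 10 members when the genotype difference was averaged over the 3 times, and higher levels of none. The background at an adjusted p under 0.05 (edgeR quasi-likelihood test) was 13.2% of 13334 genes called lower and 13.3% called higher. Cyp8b1 had the largest of these log2 differences, at -3.45, and Cyp7b1, Slc27a5, Cyp27a1, Hsd3b7, Baat and Amacr followed, between -1.39 and -0.43. Cyp7a1, Cyp39a1 and Akr1d1 did not pass the test. The median log2 difference of the members was -0.59, beside 0.03 over all genes tested. The 7 members called lower were also those whose WT and α7HMZ values did not overlap, with every α7HMZ value lower, at each of the 3 times. Of all genes, 16.3% at 10:30, 17.5% at 13:30 and 16.9% at 20:30 were lower without overlap. How many were so at all 3 times was not counted. Over all 9 fed mice of each genotype, the ranges of Cyp8b1 and Slc27a5 did not overlap, where the background was 2.40% of genes. The part in these differences of the hepatocyte markers, lower in α7HMZ livers, and of the bile duct markers, higher in them, was not tested.

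**Figure D1:**
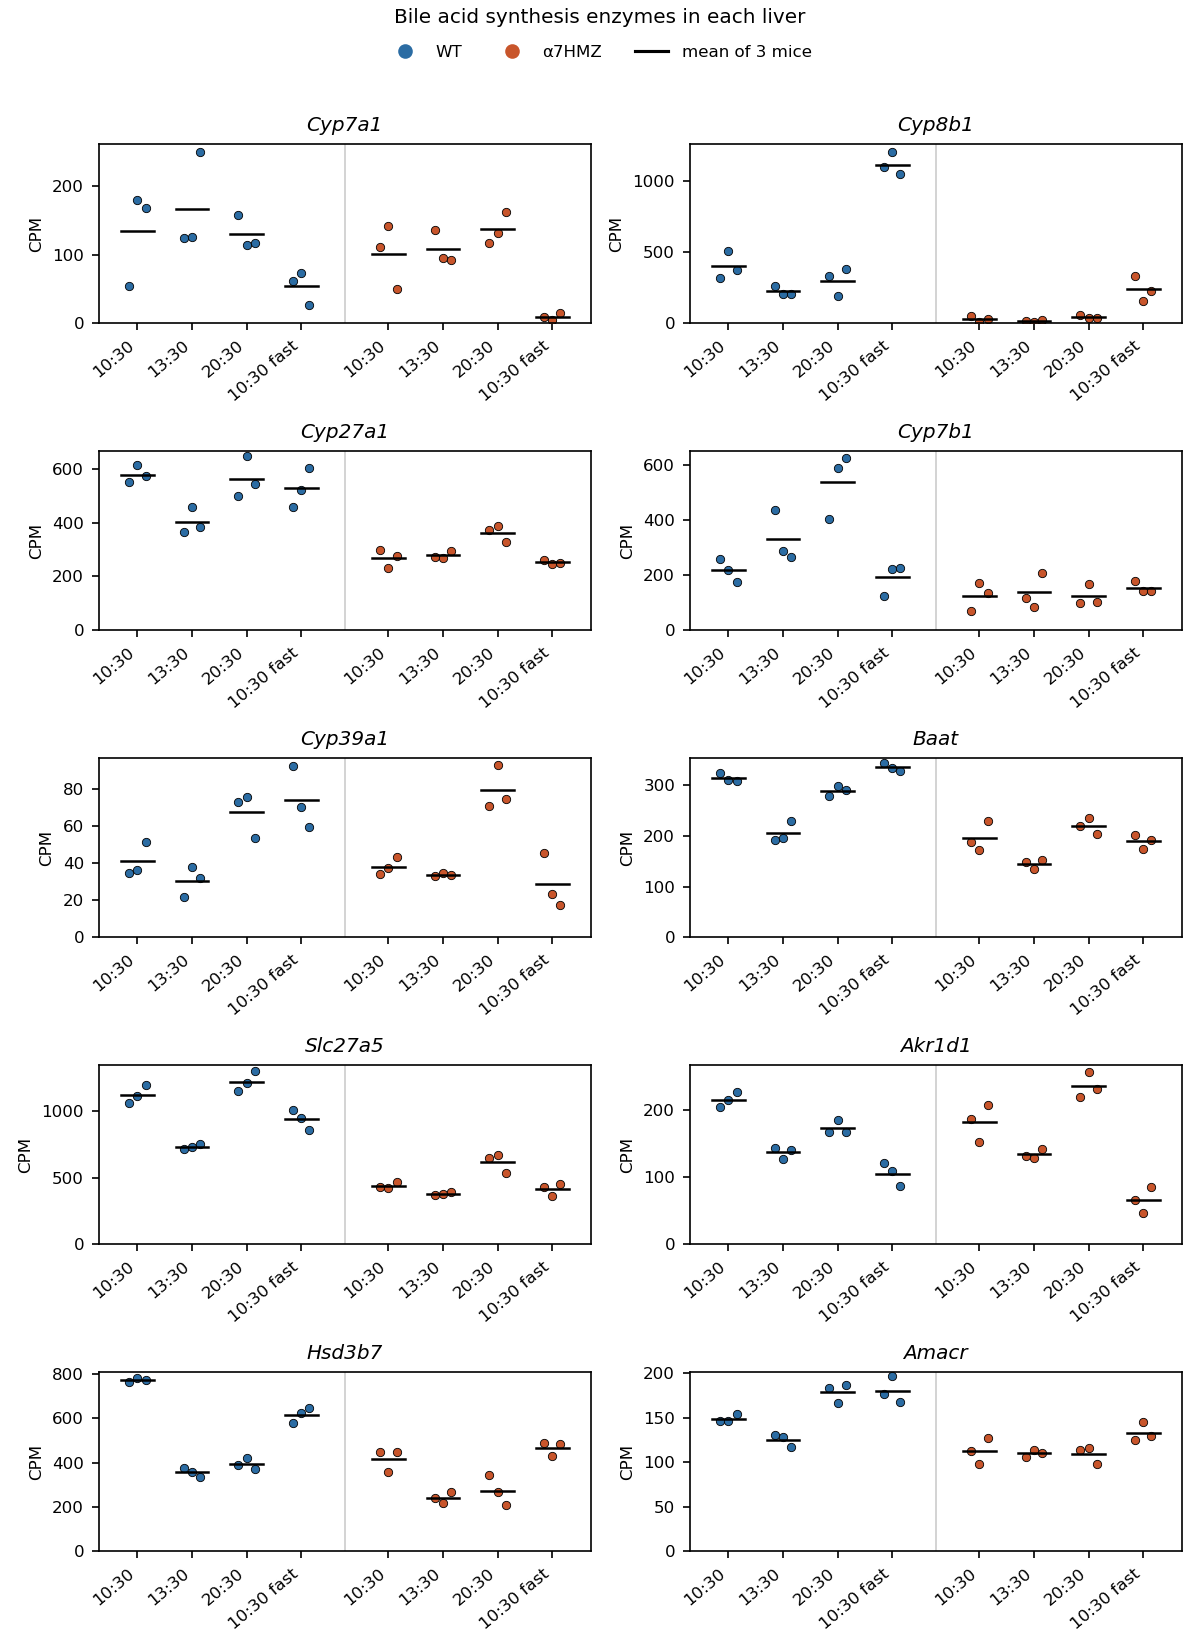
Level of each of the 10 enzymes in CPM (vertical axis from 0) in each of the 24 livers (points), by time and fasting (horizontal axis), with the mean of 3 mice as a bar. Cyp8b1 did not exceed 61.2 CPM in fed α7HMZ livers and was above 1040 CPM in the 3 fasted WT livers, while Cyp7a1 was lowest in fasted α7HMZ livers.

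Cyp7a1 (ENSMUSG00000028240.2, chr4:6265612-6275633, minus strand, mm10) encodes the rate-limiting enzyme of the classic route. At 10:30 fed WT livers held 53.8, 180.4 and 169 CPM of it and fed α7HMZ livers 112, 142 and 50.8 CPM. The 13:30 values were 124, 126 and 250.2 CPM in WT and 136, 95.3 and 92.7 CPM in α7HMZ livers. Those at 20:30 were 159, 114 and 117 CPM in WT and 117, 132 and 163 CPM in α7HMZ livers. The genotypes overlapped at every fed time, and single mice of a group differed more than the group means did. The averaged log2 difference was -0.32 (SE 0.222, adjusted p = 0.328), and the spread among mice leaves a difference of either sign possible at each time.

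Cyp8b1 (ENSMUSG00000050445.4, chr9:121914356-121916305, minus strand), the sterol 12α-hydroxylase and a gene whose exon length of 1950 bases equals its span, was the member that moved most. At 10:30 WT livers held 321, 506 and 372 CPM and α7HMZ livers 51.0, 11.7 and 29.7 CPM. At 13:30 the WT values were 263, 206 and 204 CPM and the α7HMZ values 13.9, 5.34 and 24.6 CPM. At 20:30 WT livers held 331.5, 188 and 379.6 CPM and α7HMZ livers 61.2, 38.7 and 39.6 CPM. The highest fed α7HMZ mouse was therefore below the lowest fed WT mouse, at 188 CPM. The log2 difference was -3.70 at 10:30 (SE 0.481, adjusted p = 3.09e-05), -3.96 at 13:30 (SE 0.489, adjusted p = 2e-05) and -2.69 at 20:30 (SE 0.456, adjusted p = 0.000489). The average of the 3 was -3.45 (SE 0.274, adjusted p = 1.9e-08). Without the 4 libraries that stood apart the average was -3.81 (adjusted p = 1.54e-06), and leaving out any single library gave between -3.64 and -3.32.

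Hsd3b7 (ENSMUSG00000042289.11, chr7:127800604-127803802, plus strand) encodes the 3β-hydroxysteroid dehydrogenase that acts after 7α-hydroxylation in both routes. At 10:30 the WT livers held 762 to 780.3 CPM, above the α7HMZ livers, whose lowest and middle values were 357 and 446 CPM. At 13:30 the ranges were 337 to 377 CPM in WT and 220.1 to 266 CPM in α7HMZ livers, and at 20:30 they were 372 to 423 and 207 to 344 CPM. All 3 pairs of groups were apart. The averaged log2 difference was -0.66 (SE 0.083, adjusted p = 6.82e-06). Its exons overlap those of 2 annotated genes, 1 of them antisense, that were not rows of the count table. The paper does not state whether the counting used strand.

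Akr1d1 (ENSMUSG00000038641.12, chr6:37530173-37568815, plus strand), the Δ4-3-oxosteroid 5β-reductase that gives bile acids their bent ring system, was not called in the fed average, like Cyp7a1 and Cyp39a1. It was at 206, 215 and 227 CPM in WT and 188, 153 and 209 CPM in α7HMZ livers at 10:30. At 13:30 the values were 144, 127 and 140.5 CPM in WT and 132, 129 and 143 CPM in α7HMZ livers. At 20:30 WT livers held 167, 186 and 168 CPM and α7HMZ livers 221, 257 and 231.5 CPM. The genotypes overlapped at 10:30 and 13:30, and every α7HMZ mouse was higher at 20:30, where the log2 difference was 0.45 (SE 0.108, adjusted p = 0.00815). The averaged difference was 0.06 (SE 0.0625, adjusted p = 0.522), and with offsets for GC content it was 0.21 (adjusted p = 0.00622).

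Of the alternative route, Cyp27a1 and Cyp7b1 were lower in fed α7HMZ livers and Cyp39a1 was not called. Cyp27a1 (ENSMUSG00000026170.6, chr1:74713574-74737892, plus strand), the mitochondrial sterol 27-hydroxylase, ran from 550.4 to 613 CPM in WT and from 230.4 to 297 CPM in α7HMZ livers at 10:30. Its ranges were 366 to 458 against 270.0 to 295 CPM at 13:30 and 499 to 646 against 328 to 388 CPM at 20:30. No α7HMZ mouse reached the WT range at its own time. The averaged log2 difference was -0.76 (SE 0.0708, adjusted p = 1.77e-07), with -1.11 at 10:30, -0.53 at 13:30 and -0.63 at 20:30.

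Cyp7b1 (ENSMUSG00000039519.6, chr3:18071950-18243338, minus strand), the oxysterol 7α-hydroxylase, was at 259, 219 and 177 CPM in WT and 70.3, 172 and 135 CPM in α7HMZ livers at 10:30. At 13:30 WT livers held 438, 287 and 266 CPM and α7HMZ livers 119, 85.4 and 209.8 CPM. At 20:30 the WT values were 404, 591 and 625 CPM and the α7HMZ values 101, 168 and 102 CPM. Over the 3 times single α7HMZ livers ran from 70.3 to 209.8 CPM and single WT livers from 177 to 625 CPM. The group means were 126, 138 and 124 CPM in α7HMZ and 218, 330.4 and 539.9 CPM in WT livers. The 10:30 groups were on another flow cell than the later ones, which cannot be told apart from that step in time. In WT livers 20:30 against 13:30 was not called (log2 difference 0.71, edgeR adjusted p = 0.126). The log2 difference was -0.80 at 10:30 (SE 0.329, adjusted p = 0.106), -1.26 at 13:30 (SE 0.33, adjusted p = 0.0159) and -2.13 at 20:30 (SE 0.339, adjusted p = 0.000268). Whether the difference itself changed with time did not pass the test (adjusted p = 0.145), and it passed without fed α7HMZ replicate 1 at 10:30, the library rich in Rn45s (adjusted p = 0.0423). The 13:30 call was lost without α7HMZ replicate 1 or 2 or WT replicate 1 (adjusted p between 0.0659 and 0.0968).

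Cyp39a1 (ENSMUSG00000023963.10, chr17:43667425-43751431, plus strand), which 7α-hydroxylates 24-hydroxycholesterol, was among the least abundant members. It lay between 34.8 and 51.7 CPM in WT and 34.1 and 43.3 CPM in α7HMZ livers at 10:30. The ranges at 13:30 were 21.6 to 37.8 and 33.4 to 34.6 CPM, and at 20:30 they were 53.7 to 76.1 and 70.9 to 93.3 CPM. The genotypes overlapped at each fed time, with an averaged log2 difference of 0.10 (SE 0.109, adjusted p = 0.565).

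The enzymes of side chain inversion and conjugation were lower in fed α7HMZ livers. Slc27a5 (ENSMUSG00000030382.15, chr7:12988346-12998192, minus strand) encodes the bile acid CoA ligase that prepares bile acids for conjugation. It was at 1055, 1107 and 1194 CPM in WT and 432, 419.5 and 463 CPM in α7HMZ livers at 10:30. The values at 13:30 were 710, 728 and 747 CPM in WT and 366, 377 and 395 CPM in α7HMZ livers, and at 20:30 they were 1146, 1208 and 1295 CPM and 643, 667 and 530.3 CPM. Mice within a group lay close together, and every α7HMZ mouse was below every fed WT mouse. The averaged log2 difference was -1.09 (SE 0.059, adjusted p = 8.59e-11), the smallest adjusted p of the 10 members.

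Baat (ENSMUSG00000039653.9, chr4:49489422-49506557, minus strand), whose product joins the bile acid CoA to taurine or glycine, ran from 309 to 325 CPM in WT and from 172 to 229 CPM in α7HMZ livers at 10:30, from 191 to 230.0 against 135 to 152 CPM at 13:30, and from 278 to 298 against 204 to 236 CPM at 20:30. The averaged log2 difference was -0.53 (SE 0.0624, adjusted p = 3.38e-06). Amacr (ENSMUSG00000022244.7, chr15:10981756-10996626, plus strand), the racemase that inverts the side chain carbon before peroxisomal shortening, ran from 146 to 154 against 98.1 to 127 CPM at 10:30, from 117 to 130.4 against 106 to 114 CPM at 13:30, and from 166.5 to 187 against 97.7 to 116 CPM at 20:30. Its averaged log2 difference was -0.43 (SE 0.0586, adjusted p = 1.7e-05), with -0.40 at 10:30, -0.18 at 13:30 and -0.71 at 20:30. The 13:30 value did not pass the test (adjusted p = 0.291).

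At single times, 6 members were called lower at 10:30 (background 8.98% of genes), 6 at 13:30 (6.61%) and 7 at 20:30 (10.8%), and Akr1d1 was called higher at 20:30 (8.29%). Cyp8b1, Cyp27a1, Slc27a5, Baat and Hsd3b7 were called lower at all 3 times, a condition for which the share of all genes was not counted. At 20:30 the calls of Baat, Cyp27a1 and Hsd3b7 were lost without the libraries that stood apart, which leaves 1 α7HMZ library at that time, with log2 differences of -0.26, -0.42 and -0.51 (adjusted p = 0.362, 0.136 and 0.0618). With offsets for GC content they were also lost, at -0.20, -0.30 and -0.17, and so were those of Cyp27a1 and Hsd3b7 at 13:30 (adjusted p = 0.0726 and 0.0775). Single libraries changed further calls. Baat and Hsd3b7 at 20:30 were lost without α7HMZ replicate 3 (-0.34 and -0.37, adjusted p = 0.0702 and 0.075), Hsd3b7 at 13:30 without α7HMZ replicate 2 or WT replicate 1 (adjusted p = 0.0724 and 0.0594) and Amacr at 10:30 without α7HMZ replicate 2 (-0.31, adjusted p = 0.0635), while Akr1d1 at 10:30 was called lower without α7HMZ replicate 3 (-0.36, adjusted p = 0.0324).

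**Figure D2:**
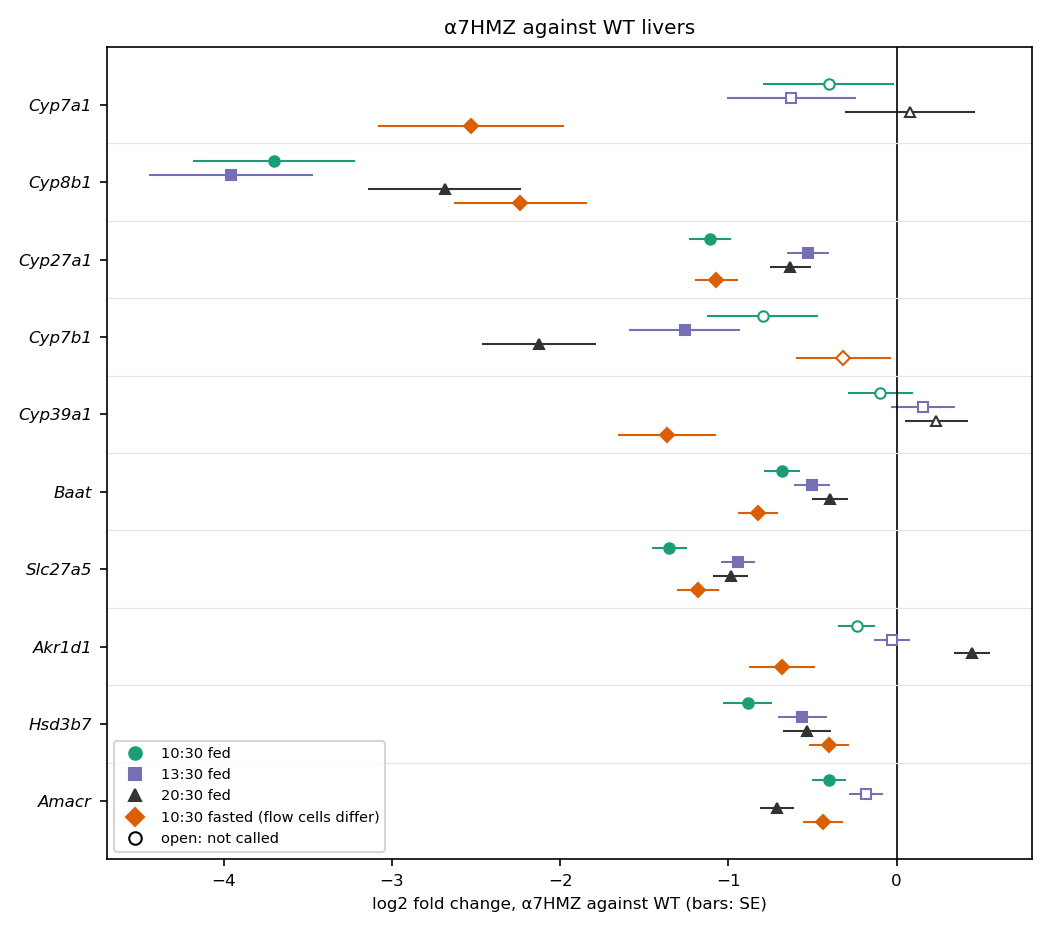
Log2 fold change of α7HMZ against WT livers (horizontal axis, bars are SE) for the 10 enzymes in fed mice at 10:30, 13:30 and 20:30 and in fasted mice at 10:30, with filled symbols for an adjusted p under 0.05 (edgeR). Cyp8b1 was lower in all 4 comparisons, Cyp7a1 and Cyp39a1 were called in fasted mice and at no fed time, and in fasted mice the genotypes were on different flow cells. Akr1d1 was higher at 20:30 and lower after the fast.

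Whether the genotype difference varied among the 3 fed times was tested with 1 joint test per gene. Akr1d1 was the 1 member called (adjusted p = 0.0355), where 4.99% of all genes were called. Its α7HMZ minus WT difference was -0.24 at 10:30, -0.03 at 13:30 and 0.45 at 20:30. Amacr and Cyp27a1 were next (adjusted p = 0.0712 and 0.0786), and Cyp7a1, Cyp39a1 and Baat had the largest adjusted p (0.616, 0.633 and 0.389). Without the libraries that stood apart Cyp27a1 was called (adjusted p = 0.0279), and without the Rn45s-rich library alone so were Cyp27a1, Cyp7b1 and Amacr (adjusted p = 0.0375, 0.0423 and 0.048). Akr1d1 lost its call when any 1 of 12 of the 18 libraries was left out (adjusted p between 0.054 and 0.079).

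Between 13:30, in the light, and 20:30, in the dark, 6 members rose in fed WT livers (background 11.6% of genes higher and 9.97% lower) and 5 in fed α7HMZ livers (3.16% and 2.05%), and none fell. The summed hepatocyte markers rose as well, without overlap. They went from 91038 to 107132 CPM up to 132239 to 159695 CPM in WT livers. In α7HMZ livers they went from 82812 to 94764 CPM up to 102983 to 127254 CPM. Their part in the rises of the members was not tested. Cyp39a1 rose most among the members called in WT mice, by a log2 difference of 1.15 (SE 0.191, adjusted p = 0.000877), and by 1.23 in α7HMZ mice (SE 0.19, adjusted p = 0.00077). Slc27a5 rose by 0.74 and 0.69, Baat by 0.49 and 0.59 and Akr1d1 by 0.34 and 0.81 in WT and α7HMZ mice, and these 4 were called in both genotypes. The share of all genes called in both was not counted. Cyp27a1 (0.48) and Amacr (0.52) were called in WT livers, and in α7HMZ livers their values were 0.38 (adjusted p = 0.0845) and -0.01 (adjusted p = 0.965). Cyp8b1 was called in α7HMZ livers, at 1.69 (SE 0.457, adjusted p = 0.0383), where the 3 values at 13:30 were all below the 3 at 20:30. In WT livers its difference was 0.42 (SE 0.427, adjusted p = 0.51). Cyp7a1 was not called in either genotype, at -0.36 (SE 0.385) in WT and 0.35 (SE 0.384) in α7HMZ mice, and neither were Cyp7b1 and Hsd3b7. The Akr1d1 call in WT livers was lost without any 1 of 5 of the 6 libraries and without those that stood apart (log2 difference 0.27, adjusted p = 0.122), as was that of Cyp27a1 (0.36, adjusted p = 0.0517), which also ended without WT replicate 2 at 20:30 alone (adjusted p = 0.0537). With offsets for GC content the WT values of Akr1d1 and Cyp27a1 were 0.24 and 0.23 and neither was called (adjusted p = 0.0721 and 0.217). The Cyp8b1 call in α7HMZ livers was lost without the libraries that stood apart (1.41, adjusted p = 0.134) and without any 1 of 4 of the 6 libraries (adjusted p between 0.0509 and 0.165).

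After the 12 h fast Cyp8b1 was higher in both genotypes, and Cyp7a1 was called lower in α7HMZ livers, whose fed and fasted groups were on different flow cells. Cyp8b1 was at 1097, 1202 and 1047 CPM in fasted WT livers and at 329, 154 and 229 CPM in fasted α7HMZ livers. Every fasted mouse was above every fed mouse of its genotype. Against fed mice at 10:30 its log2 difference was 1.48 in WT (SE 0.383, adjusted p = 0.0145) and 2.95 in α7HMZ livers (SE 0.411, adjusted p = 0.000446). Cyp7a1 was at 61.9, 73.9 and 26.6 CPM in fasted WT and at 9.40, 4.37 and 14.8 CPM in fasted α7HMZ livers. Its values in fasted WT mice overlapped those of fed mice, of which 1 was at 53.8 CPM, while all 3 fasted α7HMZ mice were below the 3 fed ones. The log2 difference of Cyp7a1 was -1.32 in WT (SE 0.515, adjusted p = 0.0817) and -3.43 in α7HMZ livers (SE 0.571, adjusted p = 0.00149).

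Akr1d1 fell in both genotypes after the fast. Its fasted values were 121, 109 and 86.9 CPM in WT and 66.6, 46.7 and 85.5 CPM in α7HMZ livers, below every fed mouse of the same genotype at 10:30. The log2 difference was -1.04 in WT (SE 0.198, adjusted p = 0.0025) and -1.47 in α7HMZ livers (SE 0.2, adjusted p = 0.000411). Cyp39a1 was at 92.4, 70.3 and 59.8 CPM in fasted WT livers, above all 3 fed mice, with a log2 difference of 0.85 (SE 0.287, adjusted p = 0.0478). In fasted α7HMZ livers it was at 45.7, 23.5 and 17.5 CPM, with a difference of -0.41 (SE 0.29, adjusted p = 0.404). Without fasted α7HMZ replicate 1, the highest of the 3, that difference was -0.90 and was called (adjusted p = 0.03), and without replicate 3 it was -0.16.

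In all, 2 members rose and 1 fell in WT mice, where 12.0% and 10.6% of 13103 genes did, and 1 rose and 2 fell in α7HMZ mice (6.68% and 5.90%). Cyp27a1, Cyp7b1, Baat, Slc27a5, Hsd3b7 and Amacr were not called in either genotype, with log2 differences between -0.33 and 0.27 in WT and between -0.09 and 0.30 in α7HMZ mice. The Cyp39a1 call in WT mice was lost when any 1 of 5 of the 6 libraries was left out (adjusted p between 0.0531 and 0.159), and that of Cyp8b1 without fed WT replicate 1 or 3 (adjusted p = 0.0657 and 0.0568). Cyp7a1 in WT mice passed without fed WT replicate 1 (-1.70, adjusted p = 0.0339) and with all 24 libraries in 1 fit (adjusted p = 0.0326). Hsd3b7 in WT mice, at -0.33, passed with offsets for GC content (-0.43, adjusted p = 0.0225) and with DESeq2 (adjusted p = 0.0242).

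**Figure D3:**
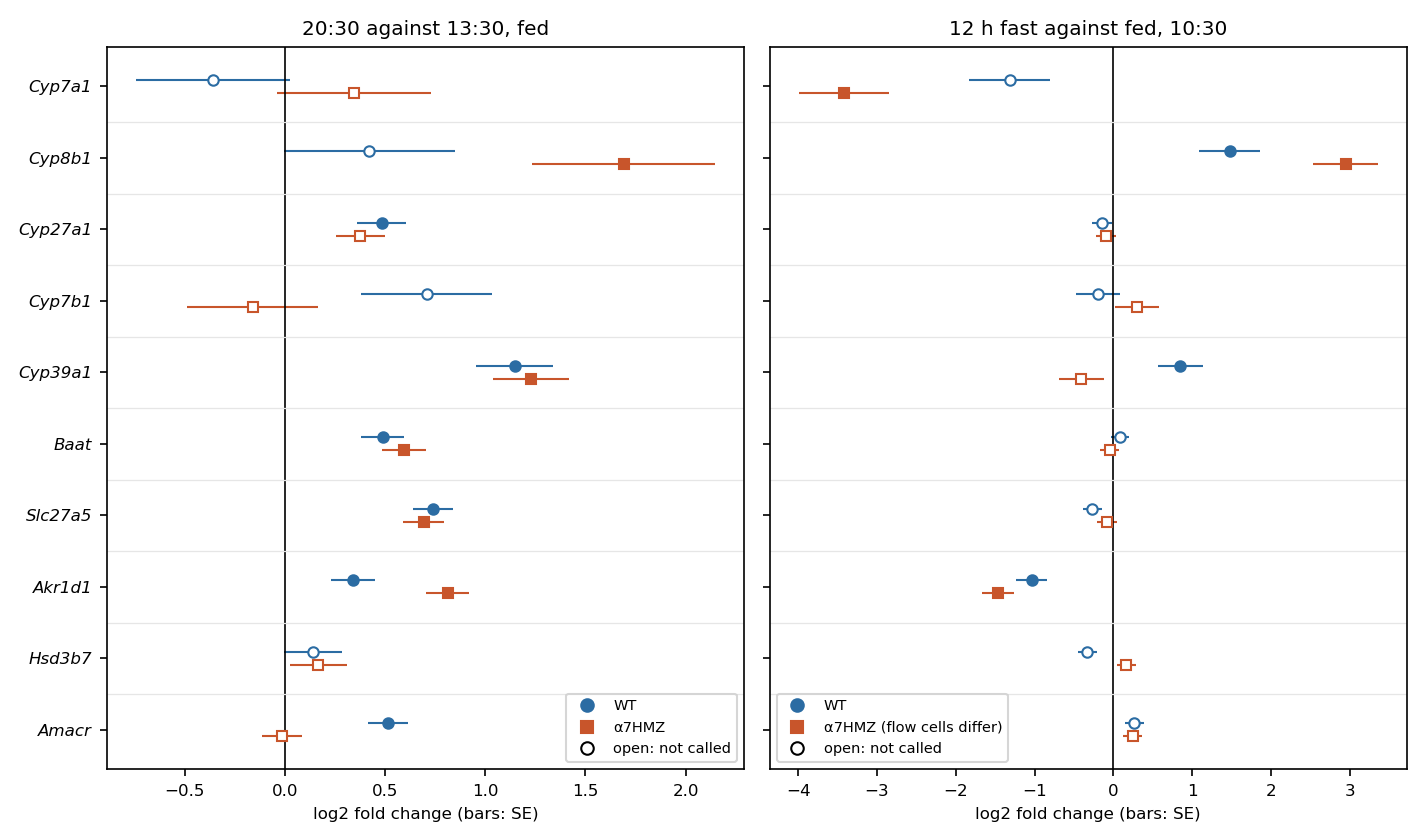
Log2 fold change (horizontal axes, bars are SE) of the 10 enzymes at 20:30 against 13:30 in fed mice (left) and after the 12 h fast against fed mice at 10:30 (right), in WT and α7HMZ livers, with filled symbols for an adjusted p under 0.05 (edgeR). After the fast Cyp8b1 was higher in both genotypes and Akr1d1 lower in both, and Cyp7a1 was called lower in α7HMZ livers.

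In fasted mice, 9 of the 10 members were called lower in α7HMZ than in WT livers (background 8.65% of genes), with a median log2 difference of -0.95 beside 0.00 over all genes tested. Cyp7b1 was the exception, at -0.32 (SE 0.281, adjusted p = 0.49). The log2 difference was -2.53 for Cyp7a1 (SE 0.555, adjusted p = 0.00804), -2.24 for Cyp8b1 (SE 0.393, adjusted p = 0.00202) and -1.37 for Cyp39a1 (SE 0.29, adjusted p = 0.0067). Slc27a5 was at 1001, 947.5 and 855 CPM in fasted WT and at 429, 359 and 453 CPM in fasted α7HMZ livers, a log2 difference of -1.18 (adjusted p = 3.7e-05). Cyp27a1 (-1.07), Baat (-0.82), Akr1d1 (-0.68), Amacr (-0.44) and Hsd3b7 (-0.40) were also lower. For all 9 the ranges of the 2 genotypes were apart, against 17.0% of all genes. The genotypes were on different flow cells here, and the summed hepatocyte markers were lower in the α7HMZ livers, whose part in these differences was not tested. The calls of Akr1d1, Amacr and Hsd3b7, with adjusted p between 0.0245 and 0.0382, were each lost without any 1 of 3 to 5 of the 6 libraries. They were also lost with offsets for GC content, where the difference was -0.59 for Akr1d1 (adjusted p = 0.0638), -0.31 for Amacr (adjusted p = 0.0768) and -0.10 for Hsd3b7 (adjusted p = 0.605).

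None of the 10 members was called in the test of whether the genotype difference changed with the fast (edgeR, 0.252% of genes called). Of the groups in this fit only fasted α7HMZ mice were on the other flow cell, which cannot be told apart from such a change. At an unadjusted p under 0.05, 4 members and 14.9% of all genes passed, and DESeq2 called 0 members. For Cyp7a1 the interaction was -2.11 (SE 0.742, adjusted p = 0.251), for Cyp8b1 1.47 (SE 0.54, adjusted p = 0.262), for Cyp39a1 -1.26 (SE 0.407, adjusted p = 0.219) and for Hsd3b7 0.50 (SE 0.169, adjusted p = 0.232). Without replicate 1 of fasted α7HMZ mice Cyp39a1 was called, at -1.75 (adjusted p = 0.0429).

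The balance between members was described with log2 ratios of CPM per kilobase of exon, without a test. The ratio of Cyp8b1 to Cyp7a1 averaged 2.83, 1.59 and 2.26 in fed WT livers at 10:30, 13:30 and 20:30, and -0.74, -2.02 and -0.49 in fed α7HMZ livers. Cyp8b1 thus exceeded Cyp7a1 in every fed WT mouse, where the lowest ratio was 0.80, and its highest ratio in a fed α7HMZ mouse was 0.32. After the fast the means were 5.59 in WT (SD 0.704, n = 3) and 5.84 in α7HMZ livers (SD 0.684, n = 3), and their ranges overlapped, from 5.12 to 6.40 and from 5.05 to 6.24. The ratio of Cyp7a1 to Cyp7b1, the first enzyme of the classic route over the 7α-hydroxylase of the alternative one, averaged -1.82, -1.98 and -2.99 in fed WT and -1.28, -1.22 and -0.76 in fed α7HMZ livers. At 20:30 the ranges were apart, from -3.36 to -2.29 in WT and from -1.29 to -0.27 in α7HMZ mice. In fasted mice the order was the other way, at -2.85 (SD 1.08, n = 3) in WT and -5.13 (SD 0.889, n = 3) in α7HMZ livers, with ranges apart. The fasted genotypes were on different flow cells, which cannot be told apart from genotype in either ratio.

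**Figure D4:**
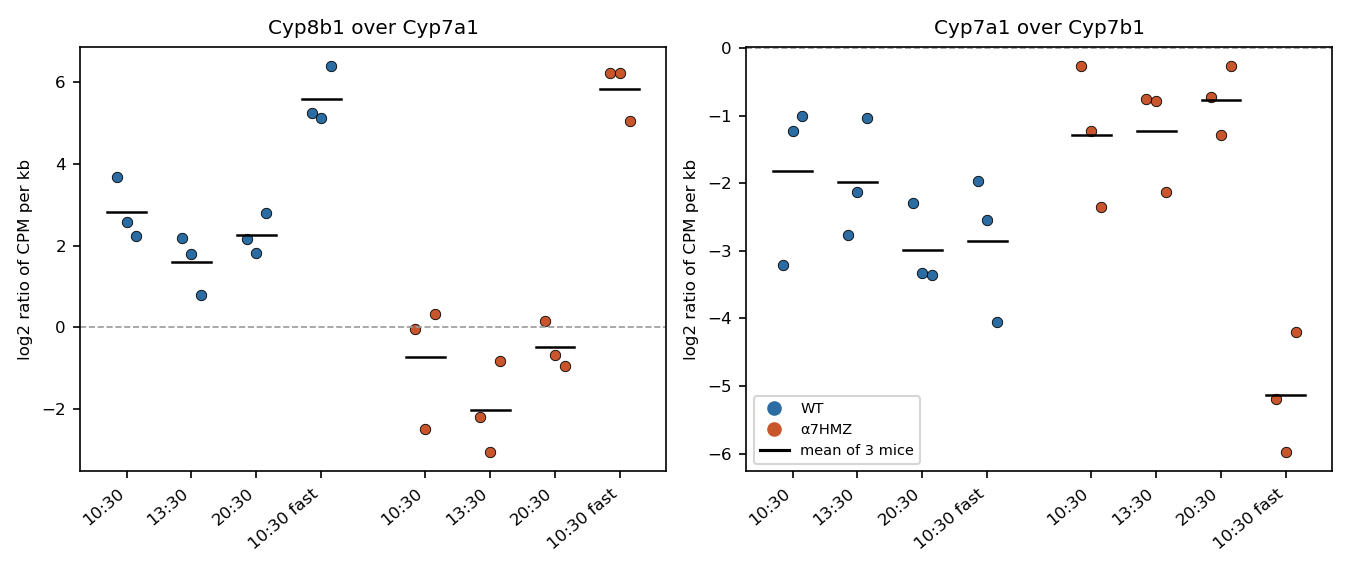
Log2 ratio of Cyp8b1 to Cyp7a1 (left) and of Cyp7a1 to Cyp7b1 (right), each as CPM per kilobase of exon (vertical axes), in each of the 24 livers (points) with the mean of 3 mice as a bar, by time and fasting (horizontal axes). The left ratio was between 0.80 and 3.67 in fed WT, between -3.06 and 0.32 in fed α7HMZ and above 5 in all fasted mice. Fasted WT and fasted α7HMZ mice were on different flow cells.

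Per kilobase of exon, Slc27a5 was the most abundant member in the 3 fed WT groups (313 to 522 CPM per kb) and Cyp39a1 the least (9.99 to 22.2 CPM per kb), with Cyp7a1 next to it. In fasted WT livers Cyp8b1 ranked first, at 572 CPM per kb, and Cyp7a1 last, at 12.98. In fed α7HMZ livers Cyp8b1 was at rank 9 or 10 of 10, at 7.50 to 23.8 CPM per kb, and in fasted α7HMZ livers at rank 4, at 122 CPM per kb. Across the 8 groups the mean level of Cyp8b1 spanned 76.2-fold, Cyp7a1 17.5-fold, Cyp7b1 4.36-fold and Amacr 1.65-fold. Ordered from low to high, the Cyp8b1 groups ran α7HMZ at 13:30, 10:30 and 20:30, WT at 13:30, fasted α7HMZ, WT at 20:30 and 10:30, and fasted WT, and 5 of the 7 neighbouring pairs overlapped. The steps without overlap lay below WT at 13:30 and below fasted WT. Cyp7a1 had 1 step without overlap among 7, between fasted α7HMZ (9.53 CPM) and fasted WT livers (54.2 CPM), and its highest group mean was 167 CPM in WT mice at 13:30. Slc27a5 and Baat had the most steps without overlap, 4 of 7 each.

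Across the 8 group means, Cyp27a1 and Slc27a5 had a Pearson r of 0.98 on the log2 scale and Cyp7a1 and Akr1d1 one of 0.86, while Cyp7a1 and Cyp8b1 had -0.25. These are descriptions over 8 points that share genotypes, flow cells and libraries. Among all genes tested, those with the group means most like Cyp7a1 were Upp2 (r = 0.98), Mrpl3 (0.97) and Fanca (0.97). Pglyrp2 (0.97), Sec14l2 (0.97) and Prob1 (0.96) were most like Cyp8b1, and Apom (0.97), Arl6ip1 (0.95) and Tnnt1 (0.95) most like Cyp7b1. Of these only Upp2 spanned a range as wide as its partner's, from 13.2 to 441 CPM.

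Other genes of the pathway were counted in whole lists, to be read against the shares of all genes called, which were 13.2% lower and 13.3% higher in the fed average and 10.6% lower and 12.0% higher after the fast in WT mice. Of 6 genes of peroxisomal side chain shortening, 4 were lower and 1 higher in fed α7HMZ livers on average, with a median log2 difference of -0.29 beside 0.03 over all genes. The log2 difference was -0.86 for Slc27a2, a CoA ligase and fatty acid transporter (SE 0.0757, adjusted p = 8.18e-08), -0.43 for Acox2, the branched-chain oxidase, -0.31 for Hsd17b4, the next enzyme, and 0.31 for the thioesterase Acot8. After the fast, Slc27a2 (1.18), Acot8 (1.30) and Hsd17b4 (0.75) rose in WT livers, where the members Amacr, Slc27a5 and Baat were not called.

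Of 5 further hydroxylases and steroid reductases that were tested, 2 were lower and 1 was higher in fed α7HMZ livers, with a median of -0.25. Cyp2a12, a bile acid 7α-hydroxylase in mice, had a log2 difference of -3.58 (SE 0.12, adjusted p = 9.5e-14), Cyp2c70, which makes muricholic acids, one of -1.39 (SE 0.174, adjusted p = 6.38e-06), and Cyp46a1, the cholesterol 24-hydroxylase, one of 0.99. After the fast Cyp2c70 (-1.30), Akr1c6 (-1.39) and Akr1c14 (-0.69) were lower in WT livers, and Cyp46a1 was higher (1.29, adjusted p = 0.0449). Ch25h did not pass the filter on low counts.

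In the list of conjugation and taurine supply, 2 of 4 genes were higher in fed α7HMZ livers, Csad, which makes hypotaurine (0.62, adjusted p = 0.01), and Acnat1 (0.57, adjusted p = 0.000467), while Slc27a5 and Baat were lower. In fasted against fed WT livers Acnat2 was higher (0.91, adjusted p = 0.0094). Of 3 genes that supply electrons to cytochromes P450, Fdx1, the ferredoxin that serves CYP27A1, was lower in fed α7HMZ livers (-0.53, adjusted p = 5.42e-05). After the fast in WT livers Por, the P450 reductase, rose (1.28) and Fdx1 fell (-0.54). Among 14 regulators, 3 were lower in fed α7HMZ livers, where 13.2% of all genes were, a count near that background: Nr1h3, which encodes LXRα (-0.48, adjusted p = 1.21e-05), Nr1d1, the clock repressor REV-ERBα (-0.44, adjusted p = 0.0261), and Nr0b2, which encodes SHP (-0.43, adjusted p = 0.0141). The medians of the lists of conjugation, electron supply and regulators were 0.28, -0.06 and -0.04. The other 11 regulators, including Nr1h4, the gene of FXR, at -0.16 (adjusted p = 0.198), and Hnf4a, at 0.26 (adjusted p = 0.058), were not called. After the fast in WT mice 1 of the 14 was called, Mafg, a repressor of bile acid synthesis genes, higher by 0.53 (adjusted p = 0.00707).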

How the data were processed

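The authors mapped reads of 75 bases, sequenced from 1 end, to the mouse assembly mm10 (TopHat2 2.1.1, with a single alignment allowed for each read) and summarised them by gene (HTSeq 0.6.1), and the deposited table holds raw counts for 23411 symbols. The kit used for the libraries is not strand-specific. For their own normalization the authors corrected for GC content within lanes and used full quantile scaling between lanes (EDASeq). A scaling of that kind was run here only as an alternative, named as offsets for GC content. The deposited FPKM files were not used here.

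Groups came from the sample labels. The members and gene lists were chosen with earlier results of these data known. Differences were tested with the quasi-likelihood F test of edgeR 4.0.16 in R 4.3.3, after filterByExpr and TMM scaling, with Benjamini-Hochberg adjustment over all genes tested and a threshold of 0.05. The 18 fed libraries formed 1 fit (13334 genes) and the 12 libraries at 10:30 another (13103 genes). The standard error (SE) is the size of the log2 difference over the square root of F. CPM values scale counts by the library size and a TMM factor computed over 24 libraries, and their precision rests on 115 to 23507 counts per member and library. The 3 mice per group are separate animals. The test was also run on simulated counts with known changes. These held no libraries that stood apart and no flow cell effect, and the rates found are not reported here. Exon lengths and coordinates came from GENCODE M21 (GRCm38, which is mm10), and promoters from RefSeq. Named genes were all 10 members and, from each other list, the 4 genes of smallest p in the fed average and in fasted against fed WT mice, where they passed. Nr1h4 and Hnf4a were added after their values were seen. Likeness is Pearson's r over 8 group means of log2(CPM + 1). Alternatives were other scalings, filters and fits, DESeq2 1.42.0, and leaving out libraries. No pair of replicates agreed within sampling noise (smallest chi-square per degree of freedom 11).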

Additional observations from a re-analysis of the deposited data

Results flagged for a closer look

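Akr1d1 was the 1 member whose difference between genotypes changed among the 3 fed times by a test of that change (edgeR, adjusted p = 0.0355). The log2 difference of α7HMZ against WT was -0.24 at 10:30, -0.03 at 13:30 and 0.45 at 20:30, and every α7HMZ mouse was above every WT mouse at 20:30. Without the libraries that stood apart, which include the 3 at 20:30 with Krt19 above 10 CPM, the difference at 20:30 was 0.62. That value rests on 1 α7HMZ library at 20:30. The call was lost when any 1 of 12 of the 18 libraries was left out (edgeR, adjusted p between 0.054 and 0.079). It was also lost with all 24 libraries in 1 fit (edgeR, adjusted p = 0.121). The 10:30 groups were on another flow cell than the later ones, so flow cell cannot be told apart from that step in time.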

How the results depend on the processing

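Requiring an absolute log2 difference of at least 1 beside the adjusted p left 3 of the 7 members called in the fed average, 3 at 10:30, 2 at 13:30, 2 at 20:30, 5 in fasted mice, and 1 in WT and 2 in α7HMZ mice at 20:30 against 13:30. At 20:30, 5 members were called with offsets for GC content and full quantile scaling, and 5 without the libraries that stood apart. For the change of the genotype difference with time, DESeq2 called 4 members, the fit without the libraries that stood apart 2 and all 24 libraries in 1 fit 0 (edgeR, where Akr1d1 had an adjusted p of 0.121), while the number of all genes called went from 665 to 1611, 1187 and 527. In fasted against fed WT mice, all 24 libraries in 1 fit called 5. The causes of these changes were not tested, other than the fold that the first setting adds.

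With each library left out in turn, the members called ranged from 7 to 7 in the fed average, 5 to 7 at 10:30, 4 to 6 at 13:30, 6 to 8 at 20:30, 0 to 4 for genotype by time (4 without fed α7HMZ replicate 1 at 10:30, the library rich in Rn45s), 4 to 6 and 4 to 5 for 20:30 against 13:30 in WT and α7HMZ mice, 2 to 2 and 3 to 4 for the fast in WT and α7HMZ mice, 6 to 8 in fasted mice between genotypes and 0 to 1 for genotype by fasting. A group left with 2 libraries, or with 1, was assumed to vary like the others. No log2 difference that was called changed sign under any alternative run, but sizes changed. Over 11 alternatives other than leaving out 1 library, the fed averages smallest in size were -3.34 for Cyp8b1 and -1.13 for Cyp7b1. They were -0.76 for Slc27a5, -0.53 for Cyp27a1, -0.39 for Hsd3b7, -0.37 for Baat and -0.30 for Amacr. Under upper quartile factors the mean of Slc27a5 in WT mice at 13:30 moved from 728 to 703 CPM, by more than its SD, and the other 79 group means moved by less.

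The labels number replicates alike in each group. Deviations of same-numbered samples from their group means had a median r of -0.0085 over 84 pairs. The values ran from -0.335 to 0.343, with 16 over 0.1. Pairs with different numbers were not compared, so this check cannot decide whether the numbers link samples. With the replicate number as a block, 1 call of the members was lost, Cyp39a1 in fasted against fed WT mice (0.82, adjusted p = 0.0578), which left 2 members called there, and the 10 other counts of members called were the same as without the block.

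The SD of Cyp7a1 among the 3 mice of a fed group was up to 52.1% of the group mean (WT at 10:30), and each fed library held at least 880 counts of it.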
